A study of Rattus norvegicus with 21 samples.

Results

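A set of 8 genes that mark and shape the lining epithelium of the urinary bladder was followed in rats after spinal cord injury (SCI): the transcription factors Trp63, Pparg and Gata3, the secreted signal Shh, and the junction and adhesion genes Cdh1, Epcam, Ocln and Tjp1. They were named by their known roles and no measured value enters the rule, although earlier results of these data were known when they were chosen. They are 8 of the 32754 genes in the count table. The table lists genes by Ensembl identifier, and the genes were taken as ENSRNOG00000001924 (Trp63), ENSRNOG00000006120 (Shh), ENSRNOG00000008839 (Pparg), ENSRNOG00000019336 (Gata3), ENSRNOG00000020151 (Cdh1), ENSRNOG00000015667 (Epcam), ENSRNOG00000018297 (Ocln) and ENSRNOG00000011077 (Tjp1). The gene table used here holds no Ensembl identifiers, so these pairings could not be checked a second time. RNA from the whole bladder wall of 21 male Sprague Dawley rats, wild type in the labels, was sequenced. SCI rats had a complete cut of the spinal cord at the T8 level at 6 to 7 weeks of age and were studied 2, 8 or 16 weeks later, and uninjured control rats were studied at 0, 2, 8 and 16 weeks, with 3 animals in each of the 7 groups. The comparison asks how the bladder changes over time once its nervous control from the brain is lost.

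The urothelium is the layered epithelium that seals the bladder against urine. Its basal cells depend on p63, the protein of Trp63, and they release sonic hedgehog (Shh), a signal to the connective tissue beneath them. PPARγ (Pparg) and GATA3 drive the maturation of the upper layers, although Pparg is also used by fat cells and Gata3 by some lymphocytes. E-cadherin (Cdh1) joins neighbouring epithelial cells at adherens junctions, EpCAM (Epcam) is an adhesion molecule of epithelia, and occludin (Ocln) is a membrane protein of the tight junction. ZO-1 (Tjp1) is the scaffold inside tight junctions and is found in endothelium and many other cells as well as in epithelium. The bladder wall also holds smooth muscle, connective tissue, vessels and nerves, so in these samples fewer cells of a type and less RNA per cell cannot be told apart. The other genes of the urothelial, tight junction and hedgehog lists, and the markers of other cell types, are not analysed here because no table available here pairs their symbols with the identifiers of the count table.

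All 8 genes were well above the limit of counting. The lowest value among them was 269 reads, for Ocln in control replicate 2 at 8 weeks, and all 8 passed the filter on low counts that kept 15225 genes. Levels are given in CPM, the share of a library's counts that fell on the gene, with the library total scaled by its TMM factor. They are compared between groups of animals but never between genes, since no gene lengths were used. Library totals lay between 8087726 and 15472537 counts. The TMM factors themselves differed between the groups, with 0.922 to 0.938 in control and 0.996 to 1.09 in SCI libraries at 8 weeks, and 0.931 to 0.988 against 1.01 to 1.06 at 16 weeks. The 10 most abundant genes also took a smaller part of the counts in every SCI library at 8 weeks (6.31% to 8.81%) than in every control library of that time (11.0% to 11.8%). The part of these library differences in the results was not tested.

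Promoter sequences are shown for Epcam, Ocln and Gata3, which differed between SCI and control rats at 16 weeks and have an entry in the RefSeq promoter table (build GRCr8, 250 bases before to 50 after the start). Capitals mark matches, on either strand, to the E-box CAGGTG (reverse complement CACCTG) or the GC box GGGCGG (reverse complement CCGCCC). The Epcam window is chr6:12649629-12649928 on the minus strand, the Ocln window chr2:33441149-33441448 on the minus strand, and the Gata3 window chr17:73553298-73553597 on the plus strand.
Epcam: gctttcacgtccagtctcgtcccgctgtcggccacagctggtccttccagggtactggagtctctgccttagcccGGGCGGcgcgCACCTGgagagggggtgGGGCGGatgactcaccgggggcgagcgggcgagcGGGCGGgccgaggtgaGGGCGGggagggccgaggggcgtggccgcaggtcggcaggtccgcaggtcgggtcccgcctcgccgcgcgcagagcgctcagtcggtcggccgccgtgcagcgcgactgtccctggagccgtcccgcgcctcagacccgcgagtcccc
Ocln: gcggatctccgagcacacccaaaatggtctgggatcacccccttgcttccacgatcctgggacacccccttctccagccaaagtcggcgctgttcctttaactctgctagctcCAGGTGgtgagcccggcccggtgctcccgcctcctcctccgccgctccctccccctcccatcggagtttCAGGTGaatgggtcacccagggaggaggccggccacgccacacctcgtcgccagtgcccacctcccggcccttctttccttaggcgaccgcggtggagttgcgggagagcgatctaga
Gata3: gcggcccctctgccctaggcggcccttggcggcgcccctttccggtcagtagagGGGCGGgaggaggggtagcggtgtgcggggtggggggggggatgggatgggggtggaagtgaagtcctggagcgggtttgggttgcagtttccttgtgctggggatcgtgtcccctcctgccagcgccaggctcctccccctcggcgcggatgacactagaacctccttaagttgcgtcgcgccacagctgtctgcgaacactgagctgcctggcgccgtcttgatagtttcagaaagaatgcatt

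The Epcam promoter held 1 E-box and 4 GC boxes, and 75.7% of its bases were G or C. The Ocln promoter held 2 E-boxes and no GC box (65.3% G or C), and the Gata3 promoter 1 GC box and no E-box (65.0%). The GATA letters AGATAA (reverse complement TTATCT) were in none of the 3. Among 33469 rat promoters of the same length, 18.8% held the E-box, 33.1% the GC box and 11.6% the GATA letters. These matches are a description of letters and not of bound sites. Of the other genes, Pparg has 2 entries, one of them with 1 E-box and 3 GC boxes, and Trp63 (listed as Tp63) and Tjp1 have entries without a match. Shh and Cdh1 have no entry.

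**Figure D1:**
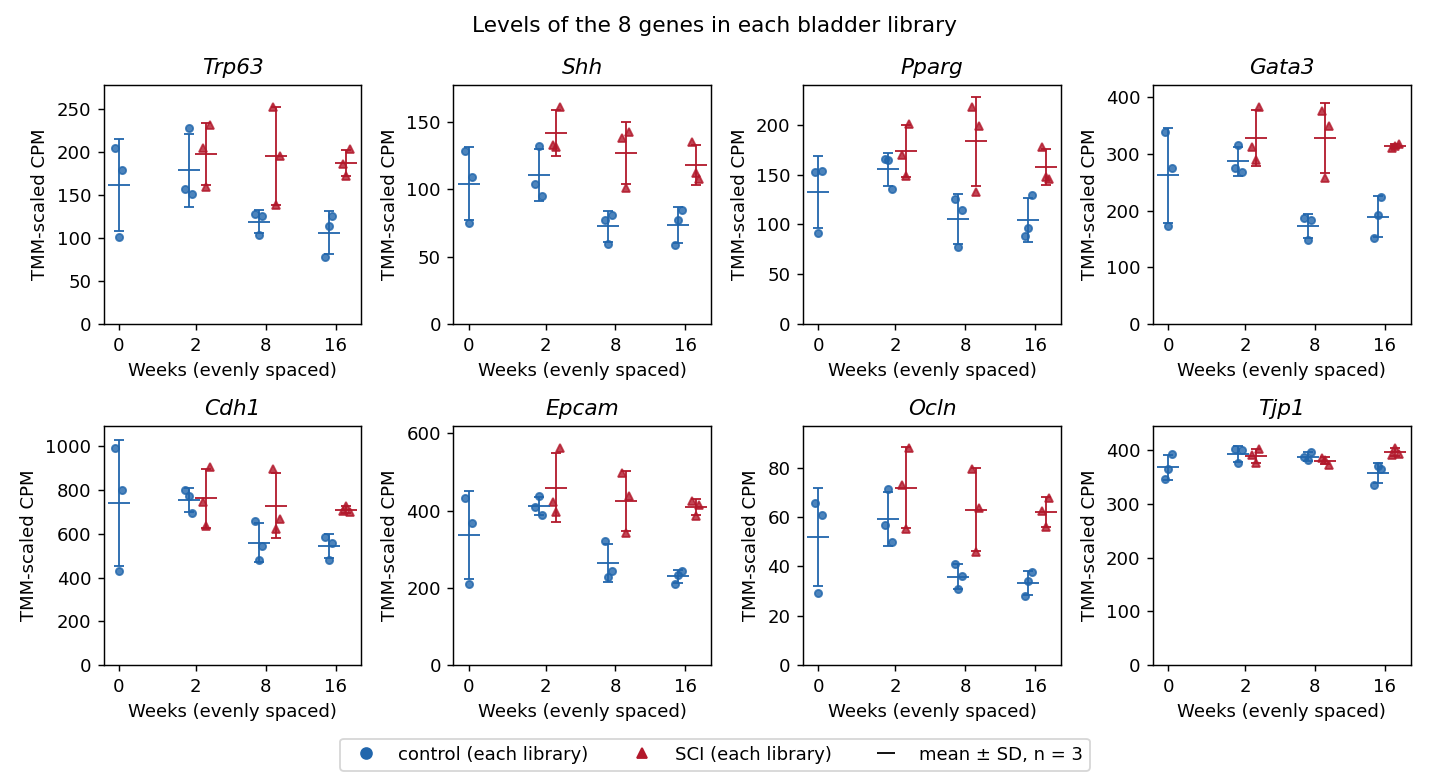
CPM of each of the 8 genes in every library (points) with the group mean and SD (lines) by week, in its own panel from 0, for control (blue) and SCI (red) rats with 3 animals a group. In 7 panels the control means are lower at 8 and 16 weeks than at 2 weeks while the SCI means change less, and Tjp1 stays between 336 and 404 CPM in all 21 libraries.

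At 2 weeks none of the 8 genes passed the test between SCI and control rats. No gene of the whole table passed an adjusted p of 0.05 at this time (0% called by the quasi-likelihood test of edgeR), and at an unadjusted p under 0.05 it called 1016 genes (6.67%) and none of the 8. DESeq2 called 64 genes and the likelihood ratio test of edgeR 69, again none of the 8. The log2 differences ran from -0.01 for Tjp1 to 0.36 for Shh, with adjusted p of 0.813 to 0.998. Shh, the signal of the basal layer, lay at 133, 131 and 161 CPM in SCI rats and at 104, 132 and 95.2 CPM in controls. One control animal thus reached the level of the SCI animals, and for all 8 genes the groups overlapped, whereas 15.6% of all genes had groups that did not overlap at 2 weeks. Intervals for a single gene were wide: for Cdh1 the 95% interval of the log2 difference ran from -0.46 to 0.49, and for Tjp1 from -0.16 to 0.13.

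At 8 weeks, 4 of the 8 genes were higher in SCI rats, namely Gata3, Shh, Pparg and Epcam, by 1.61 to 1.90 times, and none was lower. Across all genes 8.41% were called at this time, and 3.28% were called as higher. The median log2 difference was 0.76 over the 8 genes and 0.003 over all genes tested. They are the hedgehog ligand, both transcription factors of upper layer maturation and 1 of the 4 adhesion and junction genes.

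Gata3, a transcription factor of the maturing urothelium, gave 377, 259 and 349 CPM in SCI rats and 187, 148 and 183 CPM in controls at 8 weeks (328 ± 61.8 against 173 ± 21.4, mean ± SD, n = 3). Its log2 difference was 0.93 (SE 0.20, adjusted p = 0.0177), and the lowest SCI animal stood above the highest control. Shh gave 138, 101 and 142 CPM against 77.2, 59.5 and 80.9 CPM, a log2 difference of 0.81 (SE 0.20, adjusted p = 0.0232). Its groups did not overlap either. Pparg, the nuclear receptor of luminal maturation, gave 218, 133 and 199 CPM against 126, 76.9 and 114 CPM (log2 difference 0.80, SE 0.22, adjusted p = 0.0371). The SCI animal at 133 CPM was only just above the highest control animal. Epcam gave 497, 343 and 438 CPM against 321, 229 and 243 CPM (log2 difference 0.69, SE 0.21, adjusted p = 0.0460). In each of these genes replicate 2 was the lowest animal of both groups.

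The basal cell factor and the tight junction protein missed the threshold at 8 weeks with differences of the same size. Ocln gave 79.5, 45.8 and 63.7 CPM in SCI rats and 40.9, 30.8 and 36.0 CPM in controls, a log2 difference of 0.81 (SE 0.26, adjusted p = 0.0569). Trp63 gave 252, 138 and 195 CPM against 127, 104 and 126 CPM, a log2 difference of 0.71 (SE 0.25, adjusted p = 0.0804). Both had groups that did not overlap. Cdh1 gave 898, 623 and 666 CPM against 656, 479 and 544 CPM, a log2 difference of 0.38 (SE 0.22, adjusted p = 0.272), and here the groups overlapped. Tjp1 gave 386, 382 and 373 CPM against 387, 381 and 397 CPM, so that its groups lay on top of each other (log2 difference -0.03, SE 0.07, adjusted p = 0.819). In all, 6 of the 8 genes had every SCI animal above every control at 8 weeks, while 13.9% of all genes did.

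The calls at 8 weeks rested on few animals. Without control replicate 2, SCI replicate 1 or SCI replicate 3 of that time none of the 8 genes was called, and without control replicate 3 it was 2. Over all genes the calls fell as well, from 1281 to 433, 32 and 61 without the first 3 of these libraries and to 676 without the last. The call of Epcam was the weakest, lost in 17 of 30 alternatives, 12 of which left out 1 library of a group not compared. Even so, the log2 differences of the 4 called genes stayed between 0.57 and 1.12 in all alternatives. When only the libraries of the 2 groups were fitted, 1 gene, Gata3, was called, beside 322 of 14352 genes over the whole table. With the replicate number as a block, Ocln was called too (adjusted p = 0.0377). Ocln and Trp63 were both called, for 6 genes in all, by DESeq2, by the likelihood ratio test of edgeR, with library totals alone and without the controls at 0 weeks. The same settings called 1960, 1856, 3088 and 2466 genes over the whole table.

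**Figure D2:**
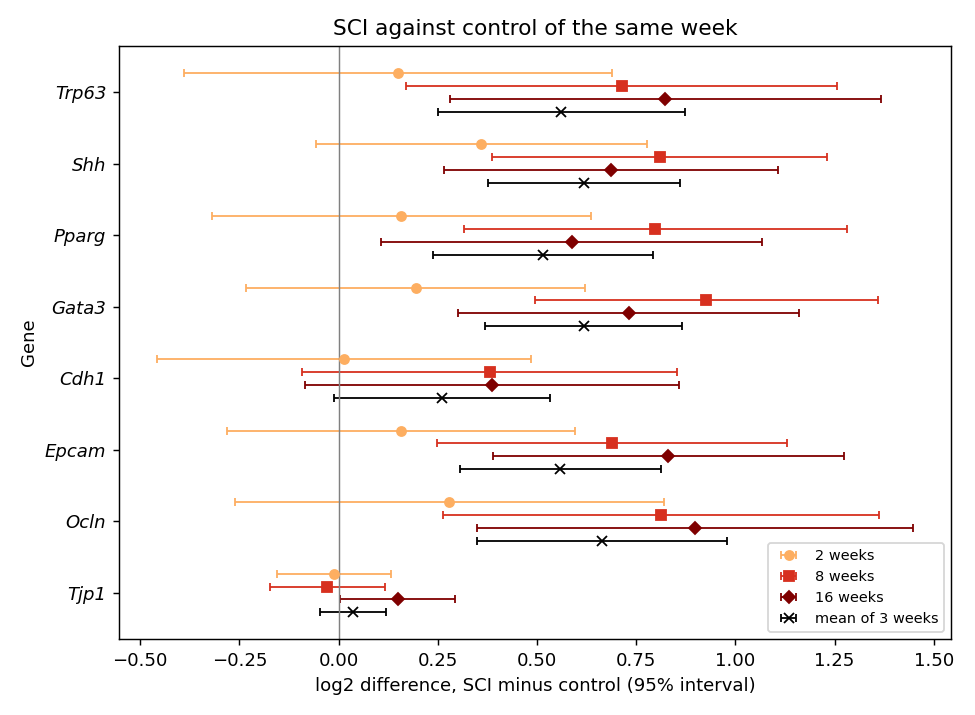
Log2 difference of SCI from control (points) with its 95% interval (bars) for each of the 8 genes at 2, 8 and 16 weeks and in their average (crosses), from 3 animals in each group. At 8 and 16 weeks the points of 7 genes lie to the right of 0, between 0.38 and 0.93, and those of Tjp1 lie at -0.03 and 0.15.

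At 16 weeks, 4 of the 8 genes were higher in SCI rats, namely Epcam, Gata3, Ocln and Shh, by 1.61 to 1.87 times, and none was lower. Across all genes 5.62% were called and 2.38% were called as higher, and the median log2 difference was 0.71 over the 8 genes against -0.02 over all genes tested. They are 2 of the 4 adhesion and junction genes, the hedgehog ligand and 1 of the 3 transcription factors. This comparison and that at 8 weeks have no library in common, but both rest on the same estimate of the spread.

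Epcam gave 426, 386 and 415 CPM in SCI rats and 211, 234 and 244 CPM in controls at 16 weeks (409 ± 20.2 against 229.9 ± 16.8, mean ± SD, n = 3), a log2 difference of 0.83 (SE 0.21, adjusted p = 0.0344). Gata3 gave 311, 315 and 317 CPM against 151, 193 and 224 CPM (log2 difference 0.73, SE 0.20, adjusted p = 0.0441). The 3 SCI animals were nearly alike, with an SD of 2.81 CPM, and the controls were spread out below them. Ocln gave 62.3, 55.8 and 67.8 CPM against 28.0, 34.3 and 37.6 CPM (log2 difference 0.90, SE 0.26, adjusted p = 0.0481). Shh gave 135, 112 and 108 CPM against 58.6, 77.4 and 84.8 CPM (log2 difference 0.69, SE 0.20, adjusted p = 0.0483). In all 4 genes the groups were apart.

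The remaining genes had higher mean levels in SCI animals at 16 weeks but missed the threshold. Trp63 gave 186, 172 and 203 CPM against 77.8, 114 and 126 CPM, a log2 difference of 0.82 (SE 0.25, adjusted p = 0.0597). Pparg gave 178, 148 and 146 CPM against 88.2, 96.6 and 129.9 CPM, a log2 difference of 0.59 (SE 0.22, adjusted p = 0.11). Cdh1, the adherens junction gene, gave 702, 727 and 698 CPM against 587, 481 and 560.0 CPM, a log2 difference of 0.39 (SE 0.22, adjusted p = 0.268). Tjp1 gave 391, 404 and 394 CPM against 336, 372 and 366 CPM, a log2 difference of 0.15 (SE 0.07, adjusted p = 0.168). Every SCI animal was above every control in all 8 genes at this time, while 17.6% of all genes showed this.

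The adjusted p values at 16 weeks were close to 0.05, and none of the 8 genes was called once any 1 of the 6 libraries compared was left out. Over all genes the calls then fell from 855 to between 16 (without SCI replicate 1) and 513 (without control replicate 2). The count also changed with libraries of other groups, which enter the filter, the scaling and the estimate of the spread. Leaving out any 1 of the control libraries at 2 weeks, SCI replicate 1 at 2 weeks or SCI replicate 3 at 8 weeks left 1 call of the 8, with 481 to 618 calls over all genes. Without control replicate 3 at 0 weeks, or control replicate 1 or 3 at 8 weeks, 2 calls were left, with 696 to 906 over all genes. When only the libraries of the 2 groups were fitted, all but Tjp1 were called, 7 genes in all, beside 2105 of 14423 genes over the whole table. DESeq2 called 6 of the 8 genes and 1637 over all, and the likelihood ratio test of edgeR 5 and 1553. Both added Trp63 to the 4 genes, and DESeq2 also added Tjp1 (adjusted p = 0.0484 by DESeq2) but not Pparg. The log2 differences of the 4 called genes stayed between 0.54 and 1.005 throughout.

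With the 3 weeks averaged in the same model, 6 of the 8 genes were higher in SCI rats, while 22.7% of all genes were called and 10.4% were called as higher. Ocln differed by 0.66 on the log2 scale (SE 0.15, adjusted p = 0.00515), Shh by 0.62 (SE 0.11, adjusted p = 0.00179) and Gata3 by 0.62 (SE 0.12, adjusted p = 0.00201). Trp63 differed by 0.56 (SE 0.15, adjusted p = 0.0118), Epcam by 0.56 (SE 0.12, adjusted p = 0.00411) and Pparg by 0.51 (SE 0.13, adjusted p = 0.00988). These 6 genes were called in all 30 alternative analyses, with adjusted p of at most 0.0306. The average holds the libraries of the single weeks and is no separate evidence.

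Cdh1 and Tjp1 were not called in the average. Cdh1 differed by 0.26 on the log2 scale (SE 0.13, adjusted p = 0.144, 95% interval -0.01 to 0.53), and it was called when only the groups compared were fitted, which leaves out the controls at 0 weeks (adjusted p = 0.0329), or when control replicate 2 at 0 weeks alone was left out (adjusted p = 0.0377). Tjp1 differed by 0.04 (SE 0.04, adjusted p = 0.525), with a 95% interval of -0.05 to 0.12. With library totals alone the median of all genes moved to 0.10 in the average and 0.19 at 8 weeks, and the differences of the 8 genes moved up by similar amounts. Since Tjp1 lay near 0, its difference at 8 weeks then turned from -0.03 to 0.16 and its average difference, at 0.14, was called (adjusted p = 0.0244).

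An exact permutation test, with SCI and control labels exchanged within weeks, was added as a check that uses no model across genes. It gave two-sided p of 5e-04 for Shh, 0.00075 for Gata3, 0.0015 for Ocln, 0.00175 for Pparg, 0.002 for Epcam and 0.00325 for Trp63, where the smallest p its 8000 arrangements can give is 0.00025. For Cdh1 the exact p was 0.0205 and for Tjp1 0.24, with n = 3 in each group. These p are unadjusted. The mean of the SCI animals was above that of the controls in all 3 weeks for 7 genes, and for Tjp1 in 1 of the 3 weeks.

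Genes were called at 8 and at 16 weeks and not at 2 weeks, but the change of the effect itself did not pass the test. None of the 8 genes was called when the effect at 8 weeks was compared with that at 2 weeks (0.0197% of all genes called), when 16 was compared with 2 weeks (0%), or when 16 was compared with 8 weeks (0%). The other tools also called none of the 8, and over all genes DESeq2 and the likelihood ratio test of edgeR called 27 and 34, 6 and 8, and 16 and 24 genes in these comparisons. The lowest p-values were those of Gata3 at 8 against 2 weeks (0.73 on the log2 scale, SE 0.28, unadjusted p = 0.0183, adjusted p = 0.539) and of Epcam at 16 against 2 weeks (0.67, SE 0.29, unadjusted p = 0.0318, adjusted p = 0.615). At an unadjusted p under 0.05 these were the single genes called of the 8 in the first and second comparison, where 8.59% and 7.75% of all genes were called, and none was called in the third (6.63%). The SCI effects at 2 weeks and at the later weeks are thus not shown to differ for any of the 8 genes.

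In controls, mean levels were lower at 8 than at 2 weeks without passing the threshold. Between 2 and 8 weeks, 7 of the 8 genes had every control animal at 8 weeks below every control animal at 2 weeks, while 13.0% of all genes did, and Tjp1 did not. No gene of the whole table passed the adjusted threshold in the quasi-likelihood test (0% called), and at an unadjusted p under 0.05 it called 18.9% of all genes and 6 of the 8, all of them lower at 8 weeks, as 8.67% of all genes were. This count over all genes depended on the fit, with 250 called by DESeq2, 193 by the likelihood ratio test of edgeR, 453 when only the 2 groups were fitted and 211 without the controls at 0 weeks. The median log2 difference was -0.60 over the 8 genes and 0.006 over all genes tested.

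Gata3 stood at 276, 316 and 269 CPM in controls at 2 weeks and at 187, 148 and 183 CPM at 8 weeks, a log2 difference of -0.73 (SE 0.20, unadjusted p = 0.00183, adjusted p = 0.139). Ocln stood at 56.6, 71.3 and 49.8 CPM and then at 40.9, 30.8 and 36.0 CPM (log2 difference -0.72, SE 0.26, adjusted p = 0.170). Epcam stood at 409, 438 and 389.9 CPM and then at 321, 229 and 243 CPM (log2 difference -0.64, SE 0.21, adjusted p = 0.151). In each of them all 3 animals at 8 weeks were below all 3 at 2 weeks. The differences were -0.61 for Shh (SE 0.20, adjusted p = 0.155), -0.585 for Trp63 (SE 0.25, adjusted p = 0.227), -0.56 for Pparg (SE 0.22, adjusted p = 0.203), -0.43 for Cdh1 (SE 0.22, adjusted p = 0.295) and -0.02 for Tjp1 (SE 0.07, adjusted p = 0.915). DESeq2 called 1 of these differences, that of Gata3. Without the control libraries at 0 weeks, Gata3 and Epcam were called.

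For the 7 genes other than Tjp1 the difference of 8 from 2 weeks was nearer 0 in SCI animals than in controls. Between 2 and 8 weeks after SCI the log2 differences ran from -0.19 for Ocln to 0.08 for Pparg, no gene of the 8 was called (0.0131% of all genes called) and none had separate groups, while 10.4% of all genes did. Gata3 for example stood at 313, 289.5 and 384 CPM at 2 weeks and at 377, 259 and 349 CPM at 8 weeks after SCI. The test of the difference between the change in controls and that in SCI animals is the one given above for the SCI effect at 8 against 2 weeks, and it passed for none of the 8 genes. Between 8 and 16 weeks the differences ran from -0.22 to 0.06 in SCI animals (0% of all genes called, none of the 8) and from -0.20 to 0.13 in controls (0.0788% called, none of the 8). Tjp1 was the only gene of the 8 with separate groups in these last comparisons, higher at 16 weeks after SCI, as 2.97% of all genes were, and lower at 16 weeks in controls, as 7.44% were.

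Between the controls at 0 and 2 weeks none of the 8 genes passed the test, with log2 differences of 0.03 for Cdh1 to 0.29 for Epcam and 0% of all genes called. At an unadjusted p under 0.05, 13.4% of all genes were called by the same test and none of the 8. DESeq2 called 47 genes and the likelihood ratio test of edgeR 43, none of them among the 8. The spread between the controls at 0 weeks was the widest of any group for all 8 genes by coefficient of variation, up to 38.7% for Cdh1. Replicate 2 was the lowest animal of that group in the 7 genes other than Tjp1. In it Cdh1 was at 428 CPM, against 992 and 799 CPM in the other 2 animals, and Epcam at 210.1 CPM, against 433 and 369 CPM. The 10 most abundant genes took 14.3% of the counts in this library, the highest share of the 21. The part of that share in its low values was not tested. This library is in no comparison of SCI with control, but it enters the estimate of the spread.

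**Figure D3:**
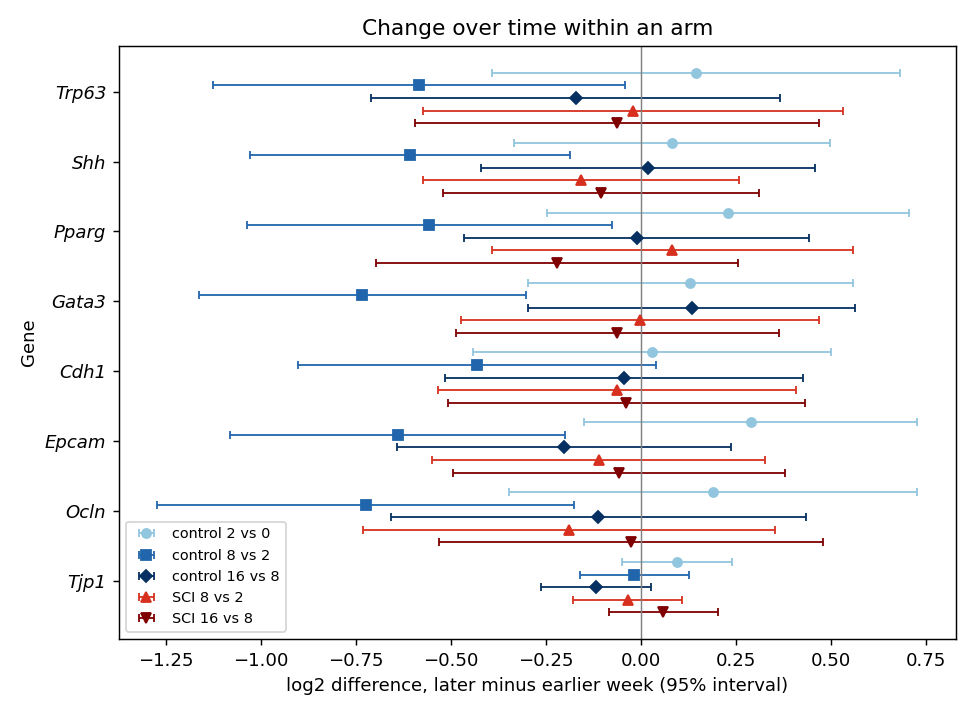
Log2 difference between successive times within controls (blue symbols) and within SCI rats (red symbols) with its 95% interval (bars) for each of the 8 genes, 3 animals in each group. The difference of controls at 8 from 2 weeks lies between -0.43 and -0.73 for 7 genes and at -0.02 for Tjp1, while the same difference in SCI rats lies between -0.19 and 0.08 for all 8 genes.

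All genes but Tjp1 moved up and down together between animals of the same group. With the group means removed from log2 CPM, all 21 pairs among Trp63, Shh, Pparg, Gata3, Cdh1, Epcam and Ocln were positively correlated over the 21 libraries at an adjusted p under 0.05, with a median Pearson r of 0.872 (28 pairs tested, 100000 permutations of libraries within groups, two-sided, Benjamini-Hochberg). The highest was that of the basal cell factor Trp63 with Ocln (r = 0.963, Spearman rho = 0.968, p = 1e-05, the smallest that these permutations can give, adjusted p = 4.67e-05). The lowest was that of Shh with Cdh1 (r = 0.661, rho = 0.578, adjusted permutation p = 0.0307). Points of a pair share their library, its depth and its scaling. No share over all pairs of genes was formed, so the count of 21 is not shown to be particular to these genes. Without the 2 libraries farthest from the median of the first gene of each pair, r of the 21 pairs lay between 0.482 and 0.946, and 18 of the 28 pairs passed.

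The same animals were therefore low in nearly all of these genes. Of the 7 genes, all 7 had their lowest value in replicate 2 of the controls at 0 weeks, replicate 3 of the controls at 2 weeks, replicate 2 of the controls at 8 weeks and replicate 2 of the SCI rats at 2 and at 8 weeks. In controls at 16 weeks, 6 of the 7 were lowest in replicate 1. Only the SCI rats at 16 weeks had no such animal, with at most 3 of the 7 genes lowest in any 1 library. The share of all genes lowest in each of these libraries was not formed. These counts are therefore not shown to be particular to the 7 genes. The 7 genes thus do not give 7 independent readings of the difference between SCI and control.

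Tjp1 was the exception. Its r with the 7 genes ran from -0.012 to 0.225, and none of its 7 pairs passed (largest rho 0.312). Its coefficient of variation within groups was 1.76% to 6.42%. This result depended on scaling and on 1 library: with library totals alone its r ran from 0.571 to 0.743 and 24 of the 28 pairs passed, and without control replicate 1 at 0 weeks its r ran from 0.378 to 0.564.

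**Figure D4:**
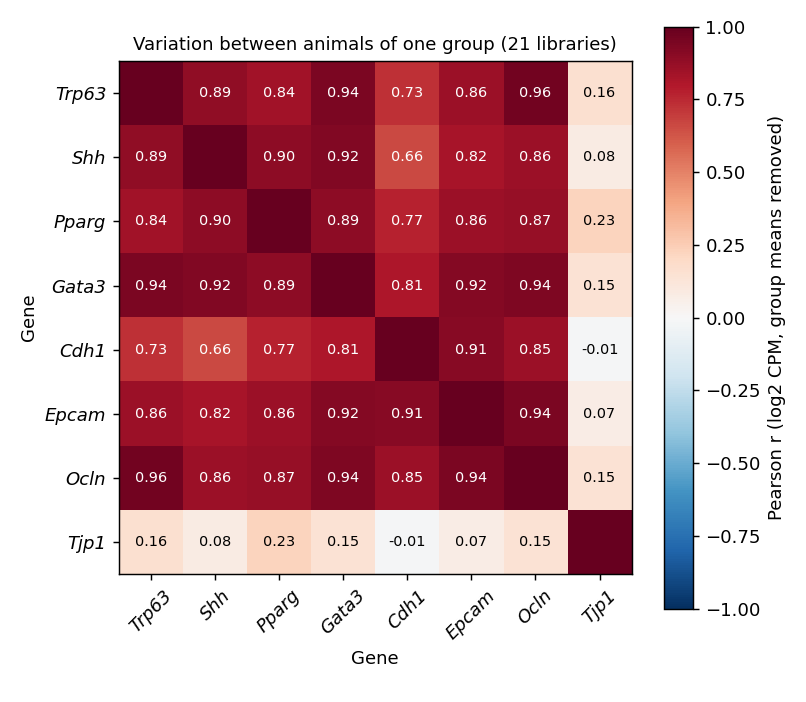
Pearson r of log2 CPM between each pair of the 8 genes after removal of the group means, over 21 libraries, coloured from -1 (blue) to 1 (red). The 21 pairs without Tjp1 lie between 0.661 and 0.963, and the 7 pairs of Tjp1 between -0.01 and 0.225.

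To see how the 7 genes that vary together differ among themselves, the level of Cdh1 was set against the mean of the other 6 genes that vary together, as a log2 ratio within each library, centred over all libraries, so that no scaling between libraries enters. The comparison was chosen after the values were seen and is given without a test. The ratio of Cdh1 was lower in SCI than in control animals at each week, with differences of -0.213, -0.402 and -0.379 at 2, 8 and 16 weeks, with no overlap between the groups. The difference at 16 weeks rested in part on control replicate 1, the animal at 0.614, and without it was -0.185, still with no overlap. At 2 weeks the 3 SCI animals lay between -0.228 and -0.195 and the controls between -0.169 and 0.128. At 8 weeks the ranges were -0.406 to -0.028 and 0.111 to 0.264, and at 16 weeks -0.239 to -0.033 and 0.016 to 0.614. No other gene of the 7 was apart in more than 1 week. In all, 7 of 21 combinations of gene and week were apart, and no share over all genes was formed for this ratio, so nothing is read from that count. Shh was relatively higher in SCI animals at 2 weeks (by 0.216), Gata3 at 8 weeks (by 0.23), and Epcam and Ocln at 16 weeks (by 0.136 and 0.213), each without overlap. Trp63 and Pparg overlapped at every week. For each of these genes the mean of the other 6 holds Cdh1. The relatively low Cdh1 of SCI animals therefore raises their ratios, and these separations are not independent of that of Cdh1. Whether they remain with Cdh1 left out of the mean was not tested. At 16 weeks the difference of Epcam was 0.07 without control replicate 3, and that of Ocln 0.138 without SCI replicate 3.

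**Figure D5:**
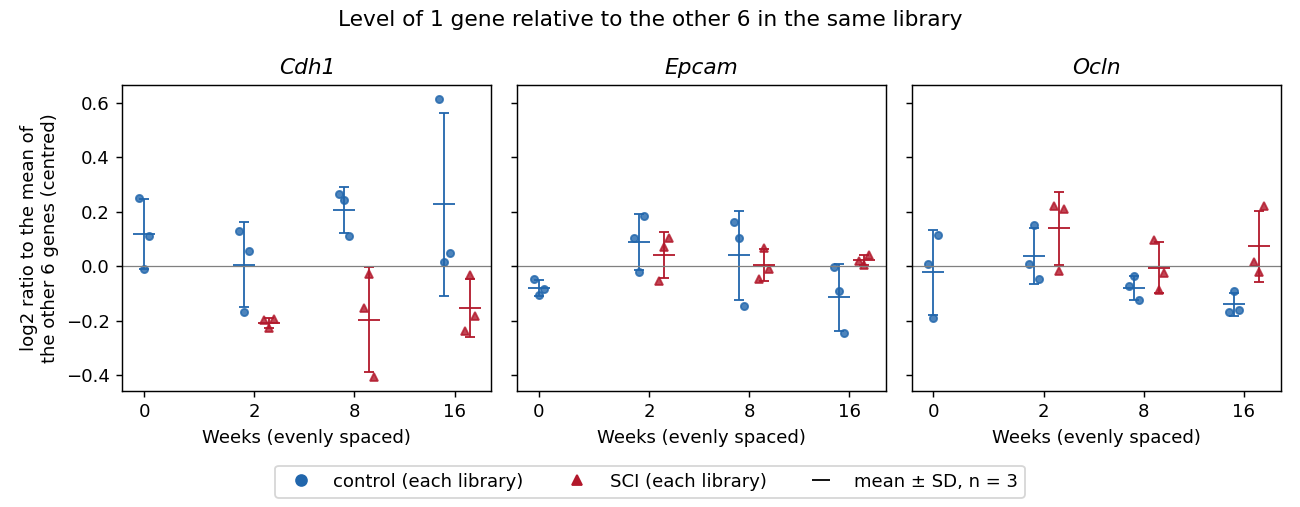
Log2 ratio of Cdh1, Epcam and Ocln to the mean of the other 6 genes in the same library, centred on 0, for each library (points) with the group mean and SD (lines), for control (blue) and SCI (red) rats by week. For Cdh1 the SCI libraries lie below the control libraries at each week, and for Epcam and Ocln they lie above them at 16 weeks. The mean used for Epcam and for Ocln holds Cdh1, so the panels are not independent.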

How the data were processed

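Counts per gene were deposited by the authors as raw whole numbers in 1 table with a column for each of the 21 libraries, made from total RNA after removal of ribosomal RNA with a stranded kit. The submitters' processing notes name FastQC 0.11.9, MultiQC 1.13, Trim Galore 0.6.10, STAR 2.7.10a, SAMtools 1.17, featureCounts 2.0.3 and the build Rnor_6.0. The annotation release and the strand setting of the counting are not given in the sources used here, so reads of overlapping or antisense genes may be shared. All libraries carry the same batch label, and nothing in the labels shows that same-numbered animals were related.

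Groups were taken from the sample titles. Genes were filtered with filterByExpr, and 15225 of 32754 were tested. All 21 libraries were fitted in 1 quasi-likelihood model with edgeR 4.0.16 (R 4.3.3) with a mean for each group, TMM factors (0.903 to 1.09) and 14 residual degrees of freedom. Within each comparison the Benjamini-Hochberg adjustment ran over all genes tested, and a gene was called at an adjusted p under 0.05. Standard errors were derived from F and the coefficient without shrinkage, and 95% intervals are not adjusted. Log2 CPM for correlations used a prior count of 2. The alternatives were DESeq2 1.42.0, the likelihood ratio test, RLE factors, library totals alone, other filters, fewer groups, a replicate block, a threshold on unadjusted p, and each library left out in turn. The test was tested on simulated counts. Replicates differed by more than sampling noise (chi-square per degree of freedom 7.22 to 59.9). The p-values of the model set a group difference against the spread between animals, estimated over all 21 libraries.

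By the naming rule, all 8 genes are named, as are the 2 genes most like them in their variation. The 8 genes and the lists were chosen with earlier results of these data known. No gene map was at hand for the lists of other urothelial, junction, hedgehog and cell type genes, and they are not analysed here. All 8 symbols were found in the RefSeq gene table, Trp63 as Tp63, and 6 had promoters.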

Additional observations from a re-analysis of the deposited data

How the results depend on the processing

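Each comparison was repeated under 30 alternatives (29 for controls at 2 against 0 weeks), and no called result changed its sign. The 6 genes called in the average of the 3 weeks were called throughout, with 6 to 7 genes in all when 1 library was left out. The other counts were less firm. At 8 weeks 4 genes were called, against 1 when only the 2 groups were fitted and 0 to 6 when 1 library was left out, while calls over all genes went from 1281 to 322 and to between 32 and 2585. At 16 weeks 4 genes were called, against 7 when only the 2 groups were fitted and 0 to 5 when 1 library was left out, with 0 for each of the 6 libraries compared, while calls over all genes went from 855 to 2105 and to between 16 and 1729. Leaving out libraries of the groups not compared was added after the data were seen. Between controls at 8 and 2 weeks no gene was called, against 1 by DESeq2, 1 by the likelihood ratio test of edgeR, 2 when only the 2 groups were fitted, 2 without the controls at 0 weeks, 6 at an unadjusted p under 0.05 with a log2 difference of at least 0.5, and 0 to 1 when 1 library was left out, where the 1 was without control replicate 2 at 0 weeks. The same unadjusted threshold called 1 gene each in the changes of the SCI effect from 2 to 8 and from 2 to 16 weeks. The cause of these changes was not tested.

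With the replicate number as a block the counts were 5 at 8 weeks, 4 at 16 weeks and 6 in the average, and 0 in every other comparison, so the block changed no call but that of Ocln at 8 weeks. Of 63 pairs of libraries with the same number, 16 had correlated deviations from the group means with r over 0.1. The median r was 0.018 for these pairs and -0.023 for pairs with different numbers. Of the 21 libraries, 11 correlated best with their own number. These values were not tested and do not show whether same-numbered samples were related. Among correlations, 21 pairs passed, against 24 with library totals alone, 18 without the farthest 2 libraries and 18 to 21 when 1 library was left out. The lowest count behind any value was 269 reads, and the standard errors rest on a spread estimated over all 21 libraries.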

Other observations

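Many genes shared the variation of these genes between animals. The 2 with the highest Pearson r to the mean of the standardised 8 genes, group means removed, were ENSRNOG00000001618 (r = 0.975) and ENSRNOG00000016753 (r = 0.969) over 21 libraries, given as a description. The median log2 CPM of ENSRNOG00000001618 was 6.97, 6.75 and 6.40 in controls at 2, 8 and 16 weeks and 7.13, 7.15 and 6.97 in SCI rats, and that of ENSRNOG00000016753 was 8.80, 8.50 and 8.14 against 8.95, 9.03 and 8.91. Of the 15217 other genes tested, 136 (0.894%) reached an r of 0.9 and 585 (3.84%) reached 0.8.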
